A study of Homo sapiens with 4 samples.

Results

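The genes described here carry sugar through glycolysis or belong to the transcriptional response to low oxygen. They were chosen by symbol from a list of 39 genes, of which 25 form a glycolytic arm (glucose and lactate transporters, glycolytic enzymes and the kinases that steer flux at phosphofructokinase and pyruvate) and 14 form a second arm of other hypoxia genes. All 39 symbols were listed in the deposited expression table of 26255 genes, and 38 averaged at least 1 FPKM (fragments per kilobase of transcript, scaled to the mapped fragments of a library) over the 4 libraries, as did 12260 genes in all. The 38 were the 25 genes of the glycolytic arm and 13 of the other arm. CA9, a carbonic anhydrase of the cell surface and a standard marker of hypoxic tumour cells, was the member left out, with 0.0532 FPKM in the control, a listed value of 0 in the other libraries and a mean of 0.0133. The members closest above the limit were CA12 and EGLN3, with means of 1.53 and 1.53 FPKM.

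Expression was measured by sequencing mRNA of TOV21G, a human line of ovarian clear cell carcinoma. The cultures received As2O3 (arsenic trioxide, which reacts with protein thiols) at 1 µM for 48 h, GSK458 (an inhibitor of the kinases PI3K and mTOR) at 0.1 µM for 48 h, both drugs at these doses for 48 h, or no drug, with no time given for the untreated culture. Every group was 1 library of this 1 cell line, so nothing below carries a test or an error between replicates, and each difference describes these libraries. Differences are given on the scale log2(FPKM + 1), which understates differences of low genes, and "2-fold" means a difference of at least 1 on that scale.

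The libraries expressed the clear cell carcinoma markers PAX8, ANXA4, KRT8, KRT18 and SPP1 at 83.6 to 1947 FPKM, while NAPSA and EPCAM stood between 0.61 and 1.71 FPKM. Summed levels of the marker lists for other cells were 2.51 to 6.08 FPKM for 7 fibroblast genes, 1.18 to 4.38 FPKM for 6 immune genes and 0.0169 to 0.0786 FPKM for 4 endothelial genes. PTPRC, CD3E, COL3A1, LUM and KDR were listed at 0 in every library. Read steps in genes below 0.5 FPKM put the depth of the treated libraries at 96.3% (As2O3), 109% (GSK458) and 85.8% (both drugs) of the control's, and the absolute depth is unknown. In bulk RNA of this kind a smaller number of expressing cells and less RNA per cell cannot be told apart.

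As background, glycolysis splits glucose into pyruvate in a chain of cytosolic enzymes, and lactate dehydrogenase and the lactate carriers dispose of the product when mitochondria do not take it up. Many of these enzymes are targets of the hypoxia-inducible factors, whose alpha subunits HIF1A and EPAS1 are marked for destruction by oxygen-dependent prolyl hydroxylases (the EGLN enzymes), and the same factors drive angiogenic, pH-regulating and mitophagy genes. PI3K and mTOR signalling is known to raise glucose uptake, glycolytic enzymes and HIF1A protein in cultured tumour cells. Clear cell carcinoma of the ovary is known for glycogen-rich cytoplasm and for expression of hypoxia genes.

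With GSK458, 24 of 25 glycolytic genes and 8 of 13 other hypoxia genes were lower than in the control, beside 50.5% of all 12260 genes, and 1 and 5 were higher, beside 49.4%. Among these, 11 glycolytic genes and 0 of the other arm were at least 2-fold lower, beside 3.87% of all genes. The 0 depends on the added 1 FPKM. In plain FPKM, ANKRD37 and EGLN3, low genes of the other arm, were at 47.8% and 48.6% of the control's level with GSK458. The median difference was −0.67 in the glycolytic arm, −0.12 in the other arm and −0.01 over all genes. In the combination against the control, 21 glycolytic genes and 6 of the other arm were lower (51.1% of all genes), and 4 and 7 were higher (48.8%). There, 5 members, all glycolytic, were 2-fold lower beside 4.31% of all genes, and the medians were −0.46 and 0.19, beside −0.01 over all genes. In plain FPKM, the low genes HK2 (glycolytic) and EGLN3 (other arm) were at 43.4% and 46.9% of the control's level with both drugs. The median of the other arm in that comparison was −0.02 when PDK1 and PDK3 were counted in it. The summed fibroblast markers were also lower in both libraries with GSK458, at 6.08 FPKM with As2O3, 2.65 with GSK458, 2.51 with both drugs and 4.21 in the control, most of it COL1A1, and their part in the result was not tested.

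As2O3 alone went with higher levels of the other hypoxia genes. In all, 12 of 13 were higher than in the control, beside 51.2% of all genes, and 1 was lower, beside 48.6%, with a median of 0.32. The glycolytic arm was split, with 15 genes higher and 10 lower, a median of 0.07 that turned to −0.01 with each library rescaled to an equal sum, and 0.01 over all genes. The members at least 2-fold higher were SLC2A3, EPAS1, ADM, PFKFB3 and VEGFA, which is 5 of 38 members beside 2.07% of all genes. No member was 2-fold lower with As2O3, beside 1.41% of all genes. The summed immune markers were also higher in both libraries with As2O3, at 4.38 FPKM with As2O3, 1.35 with GSK458, 2.93 with both drugs and 1.18 in the control, most of it CD68, a lysosomal protein that is not confined to immune cells. Their part in the result was not tested.

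**Figure D1:**
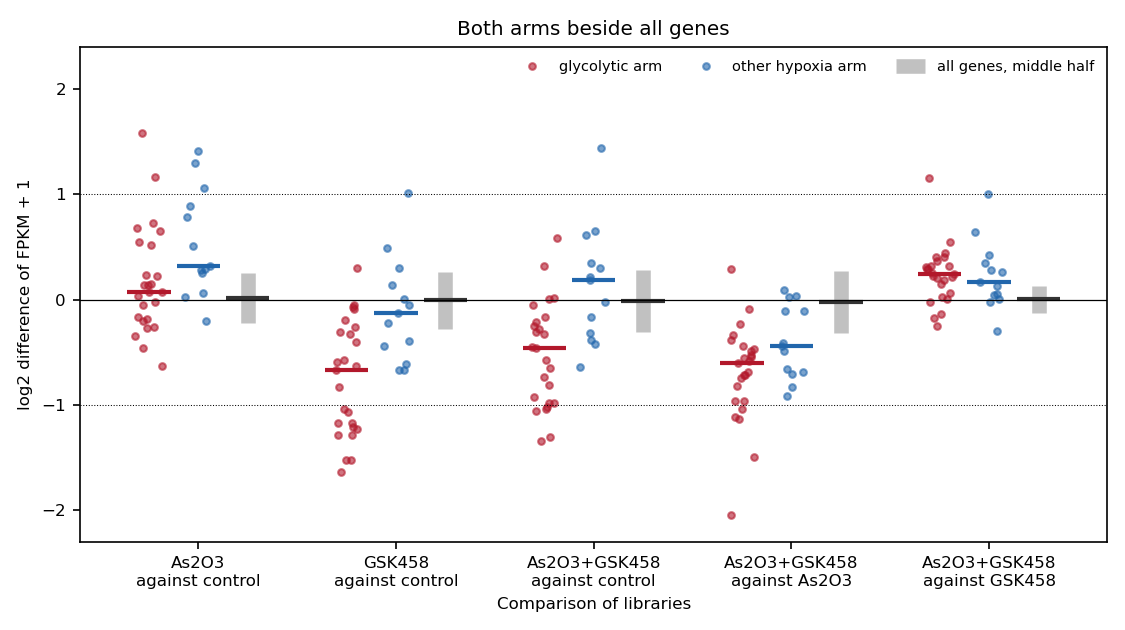
Differences on the log2(FPKM + 1) scale for the 25 glycolytic genes (red), the 13 other hypoxia genes (blue) and all 12260 genes (grey bar, lower to upper quartile) in 5 comparisons of libraries. Points are genes, coloured and black lines are medians, and dotted lines mark 2-fold. The red median lies at −0.67 and the blue at −0.12 for GSK458 against the control.

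In summed abundance, the 17 enzymes from hexokinase to lactate dehydrogenase reached 12408 FPKM with As2O3, 7554 with GSK458, 8400.5 with both drugs and 12685 in the control. They made up 2.15% of all FPKM with As2O3, 1.28% with GSK458, 1.48% with both drugs and 2.33% in the control. The sum of the 13 other hypoxia genes was 907 FPKM with As2O3, 642 with GSK458, 672 with both drugs and 660.2 in the control. The sums of the other arm were 97.2% (GSK458) and 102% (both drugs) of the control's, and those of the 17 enzymes 59.5% and 66.2%. Without EPAS1, a choice made after its values were seen, the sums of the other arm were 87.7% (GSK458) and 86.3% (both drugs) of the control's. GAPDH, the enzyme often used as a loading control, was the most abundant member, at rank 5 of all genes in the control, and without it the enzyme sums were 55.8% and 62.3% of the control's.

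The promoters of a few enzymes are printed because HK2, PGK1, ENO1 and TPI1 were all 2-fold lower with GSK458, and the lactate dehydrogenases less so, while the promoters differ in matches to the core of the hypoxia response element. The windows are the 250 bases before the gene's start as given by RefSeq on build GRCh38.p14, read 5′ to 3′ in the gene's direction, and capitals mark ACGTG or GCGTG on either strand. The expression values were made on hg19, and no coordinate of that build is used. HK2 (chr2:74833877-74834126, plus strand), PGK1 (chrX:78103998-78104247, plus strand) and ENO1 (chr1:8878687-8878936, minus strand) hold matches, and TPI1 (chr12:6867281-6867530, plus strand) holds none. LDHA (chr11:18394313-18394562, plus strand) and LDHB (chr12:21657843-21658092, minus strand) encode the subunits of lactate dehydrogenase, and LDHA alone of the pair holds matches.
HK2: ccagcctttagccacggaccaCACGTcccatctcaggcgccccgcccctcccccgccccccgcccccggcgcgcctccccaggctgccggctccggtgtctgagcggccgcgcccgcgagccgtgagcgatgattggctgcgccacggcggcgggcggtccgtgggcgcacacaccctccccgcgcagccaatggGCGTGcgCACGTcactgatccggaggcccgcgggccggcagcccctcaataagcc
PGK1: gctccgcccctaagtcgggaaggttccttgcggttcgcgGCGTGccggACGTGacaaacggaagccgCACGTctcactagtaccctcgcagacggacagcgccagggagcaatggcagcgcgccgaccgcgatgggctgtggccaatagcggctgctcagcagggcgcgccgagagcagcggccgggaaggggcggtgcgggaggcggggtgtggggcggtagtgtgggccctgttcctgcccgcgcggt
ENO1: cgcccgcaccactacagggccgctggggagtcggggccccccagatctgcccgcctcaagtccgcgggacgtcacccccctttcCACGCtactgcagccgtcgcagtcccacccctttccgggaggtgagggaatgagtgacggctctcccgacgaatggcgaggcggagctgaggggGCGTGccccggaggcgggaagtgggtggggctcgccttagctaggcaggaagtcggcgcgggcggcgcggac
TPI1: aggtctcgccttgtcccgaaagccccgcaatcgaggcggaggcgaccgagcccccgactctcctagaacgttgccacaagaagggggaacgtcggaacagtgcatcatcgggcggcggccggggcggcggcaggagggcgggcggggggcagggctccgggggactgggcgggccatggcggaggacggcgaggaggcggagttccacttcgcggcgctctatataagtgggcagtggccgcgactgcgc
LDHA: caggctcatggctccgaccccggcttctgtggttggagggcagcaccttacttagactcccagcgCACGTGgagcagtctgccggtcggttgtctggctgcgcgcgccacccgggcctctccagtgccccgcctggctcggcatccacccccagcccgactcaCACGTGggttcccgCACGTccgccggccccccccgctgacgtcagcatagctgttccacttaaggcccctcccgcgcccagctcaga
LDHB: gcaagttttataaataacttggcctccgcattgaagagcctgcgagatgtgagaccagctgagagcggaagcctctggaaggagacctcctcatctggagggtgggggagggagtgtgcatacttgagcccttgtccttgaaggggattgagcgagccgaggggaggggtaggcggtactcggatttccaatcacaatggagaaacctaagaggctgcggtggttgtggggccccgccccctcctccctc

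RefSeq promoters were matched for 34 of the 38 members. ACGTG or GCGTG occurred in 13 of 23 glycolytic promoters and in 9 of 11 promoters of the other arm. Of all 27305 promoters of this length 43.1% held a match, as did 58.2% of the 9232 promoters of genes that averaged at least 1 FPKM. The longer CACGTG, which reads the same on both strands and counts as 2 overlapping ACGTG matches, occurred in 3 glycolytic promoters (ALDOC, GAPDH and LDHA) and 2 of the other arm (BNIP3 and ANKRD37), beside 6.49% of all promoters and 8.97% of those of genes that averaged at least 1 FPKM. The glycolytic genes with a match had a median difference of −0.67 with GSK458 and those without one −0.73. At least 2-fold lower were 6 of 13 and 5 of 10 genes, beside 3.87% of all genes. A match describes letters in these windows and is not a binding site. Each gene has 1 window, and whether its start is the one used in these cells was not checked.

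The glucose carriers were higher with As2O3 and lower with GSK458 than in the control. SLC2A1, the widespread glucose transporter, stood at 24.8 FPKM with As2O3, 5.91 with GSK458, 14.4 with both drugs and 15.03 in the control. Its level with both drugs was close to the control's, its difference from the control being −1.21 with GSK458 and −0.06 with both drugs, and 1.16 between the combination and GSK458. SLC2A3, the transporter with higher glucose affinity, stood at 25.8 FPKM with As2O3, 4.04 with GSK458, 5.49 with both drugs and 7.95 in the control. The As2O3 library was the highest for SLC2A3, at 1.58 above the control, and the combination lay −2.05 from As2O3, the lowest value of any member in any of the 5 comparisons. SLC2A3 has the near-identical paralog SLC2A14, listed at 0 in every library, so the assignment of its reads is uncertain.

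The lactate carriers differed less. SLC16A1, the carrier used for import as well as export, stood at 31.9 FPKM with As2O3, 27.5 with GSK458, 24.3 with both drugs and 29.00 in the control. SLC16A3, the export carrier of glycolytic cells, stood at 74.9 FPKM with As2O3, 44.5 with GSK458, 59.2 with both drugs and 47.3 in the control. SLC16A3 was higher in both libraries with As2O3 than in both others, whereas SLC16A1 was lower in both libraries with GSK458, and neither was 2-fold apart from the control.

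Hexokinases commit glucose to the cell by phosphorylation. HK2, the inducible isoenzyme bound to mitochondria, stood at 10.1 FPKM with As2O3, 1.699 with GSK458, 2.94 with both drugs and 6.78 in the control. HK1, the constitutive isoenzyme, stood at 107 FPKM with As2O3, 69.4 with GSK458, 79.04 with both drugs and 91.9 in the control. The order of the libraries was the same for both genes, but HK2 differed from the control by −1.53 with GSK458 and by −0.98 with both drugs, and HK1 by −0.40 and −0.21. HK2 is a low gene here, and on a scale with 5 FPKM added its GSK458 difference was −0.81. HKDC1, a further hexokinase gene not among the members, stood at 75.5 FPKM with As2O3, 44.8 with GSK458, 41.5 with both drugs and 60.4 in the control.

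The steps from glucose phosphate to the trioses showed a mix. GPI, the isomerase after hexokinase, stood at 161 FPKM with As2O3, 69.1 with GSK458, 82.2 with both drugs and 157 in the control. Both GSK458 libraries were low, with differences of −1.17 and −0.93 from the control, and the As2O3 library was level with it. The phosphofructokinase subunits, which form the main control point of the pathway, were close to the control with GSK458. PFKP, the most abundant subunit, stood at 374 FPKM with As2O3, 248 with GSK458, 259.99 with both drugs and 256 in the control. PFKL, the liver-type subunit, stood at 68.96 FPKM with As2O3, 65.5 with GSK458, 64.6 with both drugs and 78.7 in the control. PFKM, the muscle-type subunit, stood at 66.03 FPKM with As2O3, 52.4 with GSK458, 47.5 with both drugs and 59.9 in the control. PFKL and PFKM differed from the control by −0.26 and −0.19 with GSK458 and by −0.19 and 0.14 with As2O3. PFKP was −0.05 and 0.54 apart from the control in the same libraries, so no subunit was 2-fold lower. Of the other steps from hexokinase to pyruvate kinase, GAPDH alone had no gene 2-fold lower with GSK458.

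The bifunctional enzymes that set the activator of phosphofructokinase differed from each other. PFKFB3, whose kinase activity makes the activator, stood at 95.3 FPKM with As2O3, 51.9 with GSK458, 63.5 with both drugs and 41.8 in the control. It was the glycolytic gene with higher values in all 3 treated libraries than in the control, and the only member of the arm above the control with GSK458. PFKFB4 of the same family stood at 5.86 FPKM with As2O3, 3.82 with GSK458, 3.898 with both drugs and 6.69 in the control. Its values with GSK458 and with both drugs were nearly equal, at −0.67 and −0.65 from the control.

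Aldolase cleaves the hexose into trioses. ALDOA, the main isoenzyme, stood at 1436 FPKM with As2O3, 789 with GSK458, 985 with both drugs and 1220.3 in the control. ALDOC, the isoenzyme first described in brain, stood at 31.9 FPKM with As2O3, 14.2 with GSK458, 14.2 with both drugs and 30.3 in the control. ALDOC was at nearly the same level in both libraries with GSK458 and was −1.04 from the control in each, whereas the differences of ALDOA were −0.63 and −0.31.

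The enzymes from triose phosphate isomerase to pyruvate kinase were low with GSK458. All 7 were lower than in the control, beside 50.5% of all genes, and 5 passed 2-fold, beside 3.87%. Their median was −1.23, beside −0.51 for the 8 genes from hexokinase to aldolase. PGAM1, the phosphoglycerate mutase, stood at 327 FPKM with As2O3, 162 with GSK458, 199 with both drugs and 506 in the control. It had the lowest GSK458 difference of any member, −1.64, a value with 1.65% of all genes below it, and it was also the member with the lowest As2O3 difference, at −0.63. TPI1, which interconverts the trioses, stood at 984 FPKM with As2O3, 412 with GSK458, 479 with both drugs and 1184 in the control. PGK1, the first ATP-forming enzyme of the pathway, stood at 315 FPKM with As2O3, 129.98 with GSK458, 161 with both drugs and 319 in the control. For TPI1 and PGK1 both GSK458 libraries were below both libraries without it, the As2O3 library being near the control for PGK1 and lower for TPI1 (−0.27).

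Enolase and pyruvate kinase completed the block. ENO1, the main enolase, stood at 1085 FPKM with As2O3, 535 with GSK458, 615 with both drugs and 1252 in the control. ENO2, the neuronal isoenzyme that many tumours express, stood at 60.99 FPKM with As2O3, 29.2 with GSK458, 36.7 with both drugs and 36.4 in the control. The pair differed in the As2O3 library, where ENO2 was 0.73 and ENO1 −0.21 from the control, and in the combination, where ENO2 was level with the control (0.01) and ENO1 was −1.03. PKM, the pyruvate kinase gene of proliferating cells, stood at 719 FPKM with As2O3, 409.9 with GSK458, 489 with both drugs and 861 in the control. GAPDH stood at 5109 FPKM with As2O3, 3039 with GSK458, 3359 with both drugs and 4595 in the control, with −0.60 between GSK458 and the control.

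**Figure D2:**
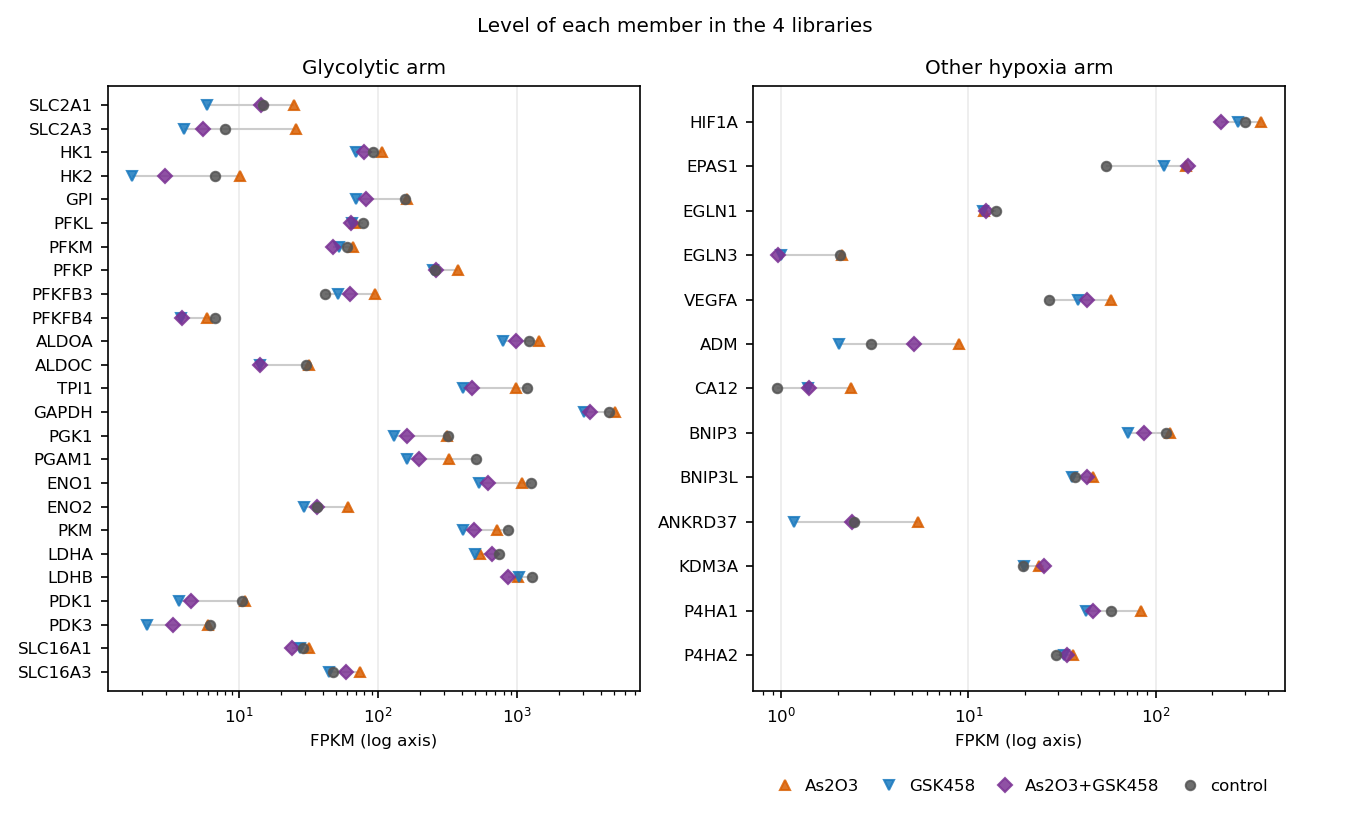
FPKM of each of the 38 members on a log axis in the As2O3 (triangle up), GSK458 (triangle down), As2O3+GSK458 (diamond) and control (circle) libraries, with a grey line over the range of each gene. The GSK458 triangle is the lowest point for 20 of 25 glycolytic genes and for 6 of 13 other hypoxia genes, and the As2O3 triangle is the highest for 15 and 10. The matching shares of all genes were not computed.

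The lactate dehydrogenases, which convert pyruvate and lactate, had smaller differences with GSK458 than the block before them. LDHA, the lactate-forming subunit, stood at 542 FPKM with As2O3, 502 with GSK458, 665 with both drugs and 747 in the control. LDHB, the subunit that favours pyruvate, stood at 1011 FPKM with As2O3, 1026 with GSK458, 862 with both drugs and 1283 in the control. LDHA was lower with each drug alone than with both, so its combination value lay 0.29 from As2O3 and 0.40 from GSK458, and it was the only glycolytic gene higher in the combination than in the As2O3 library. LDHB was lowest with both drugs.

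Pyruvate dehydrogenase kinases keep pyruvate out of the mitochondrial oxidation pathway. PDK1, a known HIF target, stood at 11.1 FPKM with As2O3, 3.72 with GSK458, 4.51 with both drugs and 10.5 in the control. PDK3 stood at 6.001 FPKM with As2O3, 2.204 with GSK458, 3.36 with both drugs and 6.23 in the control. Both were at least 2-fold lower with GSK458 than in the control (−1.29 and −1.17) and close to the control with As2O3 (0.07 and −0.05). PDK4, a kinase of the same family that fasting induces and that was not among the members, was the most abundant at 196 FPKM with As2O3, 288 with GSK458, 321 with both drugs and 233 in the control, and PDK2 stood at 19.2 FPKM with As2O3, 24.00 with GSK458, 21.6 with both drugs and 17.9 in the control.

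Processed pseudogenes limit several of these values, since how multiply mapped reads were handled is not stated in the labels or the file. RefSeq lists 65 pseudogenes named after GAPDH, 46 after BNIP3, 13 after PGAM1, 6 after LDHA, 5 after PKM, 4 each after ENO1 and TPI1, 3 each after LDHB and SLC2A3, 2 each after PGK1 and ALDOA and 1 after HK2. Without the 12 members that have such copies or a near-identical paralog, the glycolytic median with GSK458 was −0.36, and 5 members were 2-fold lower in place of 11. These were PDK1, SLC2A1, PDK3, GPI and ALDOC. The difference between the arm medians was then −0.28 with As2O3 and −0.27 with GSK458 against the control, in place of −0.25 and −0.55. Of the 7 enzymes from triose phosphate isomerase to pyruvate kinase, ENO2 alone is left, at −0.31 with GSK458, so the low median of that block rests on genes with such copies.

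Among the other hypoxia genes, the alpha subunits differed in order across the libraries. HIF1A stood at 365 FPKM with As2O3, 274 with GSK458, 223 with both drugs and 299 in the control. EPAS1, which encodes the second alpha subunit (HIF2A), stood at 146 FPKM with As2O3, 111 with GSK458, 149 with both drugs and 54.2 in the control. EPAS1 was higher in all 3 treated libraries, at 1.41, 1.01 and 1.44 from the control, and was the 1 member at least 2-fold higher with GSK458, beside 2.35% of all genes, and with both drugs, beside 3.25%. With each library rescaled to an equal sum its GSK458 difference was 0.91, below 2-fold. HIF1A was lowest in the combination, −0.71 from As2O3 and −0.30 from GSK458. A gene on the opposite strand of HIF1A, HIF1A-AS2, stood at 144 FPKM with As2O3, 107 with GSK458, 90.7 with both drugs and 127 in the control, in the same order of libraries, and since the strand setting of the counting is not given, reads of the pair may not be told apart.

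The hydroxylases that act on these subunits differed little in absolute terms. EGLN1, the main oxygen sensor, stood at 12.1 FPKM with As2O3, 11.96 with GSK458, 12.4 with both drugs and 14.1 in the control. It varied least of the 38 members, with 0.22 between its highest and lowest library. EGLN3, a HIF target itself, stood at 2.103 FPKM with As2O3, 0.997 with GSK458, 0.964 with both drugs and 2.05 in the control, with both GSK458 libraries below both others. CA12, another surface carbonic anhydrase, stood at 2.36 FPKM with As2O3, 1.398 with GSK458, 1.401 with both drugs and 0.951 in the control, so its difference of 0.78 with As2O3 is between low levels. Beside CA12 the family's usual hypoxia marker CA9 was at or near 0.

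The secreted factors were higher with As2O3. VEGFA, the main angiogenic growth factor, stood at 57.6 FPKM with As2O3, 38.3 with GSK458, 43.1 with both drugs and 27.1 in the control. Its level was above the control in all 3 treated libraries, with differences of 1.06, 0.49 and 0.65. ADM, a vasodilator peptide, stood at 8.87 FPKM with As2O3, 2.05 with GSK458, 5.13 with both drugs and 3.004 in the control. ADM was higher with As2O3 in both settings, 1.302 above the control and 1.01 above GSK458 alone. ADM and SLC2A1 were the 2 of 38 members at least 2-fold higher in the combination than with GSK458, beside 0.644% of all genes, and none was 2-fold lower, beside 0.318%.

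The remaining genes of the arm act in mitophagy, chromatin and collagen, besides ANKRD37. BNIP3, a receptor that marks mitochondria for autophagy, stood at 119 FPKM with As2O3, 71.4 with GSK458, 87.05 with both drugs and 114 in the control. BNIP3L, its paralog with the same role, stood at 46.3 FPKM with As2O3, 35.7 with GSK458, 42.9 with both drugs and 36.9 in the control. BNIP3 followed the glycolytic pattern, lower in both libraries with GSK458, and BNIP3L did not, with −0.05 for GSK458 against the control. ANKRD37, a small ankyrin repeat protein induced by hypoxia, stood at 5.403 FPKM with As2O3, 1.17 with GSK458, 2.403 with both drugs and 2.46 in the control. It was higher with As2O3 and lower with GSK458, and its combination value was level with the control's (−0.02). KDM3A, a histone demethylase that needs oxygen, stood at 23.7 FPKM with As2O3, 19.7 with GSK458, 25.2 with both drugs and 19.7 in the control. P4HA1, a catalytic subunit of collagen prolyl hydroxylase, stood at 83.2 FPKM with As2O3, 42.4 with GSK458, 46.3 with both drugs and 57.95 in the control. P4HA2, the alternative subunit, stood at 36.1 FPKM with As2O3, 32.3 with GSK458, 33.4 with both drugs and 29.3 in the control. Only P4HA1 of the pair was lower in both libraries with GSK458, while KDM3A and P4HA2 were higher in both libraries with As2O3.

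**Figure D3:**
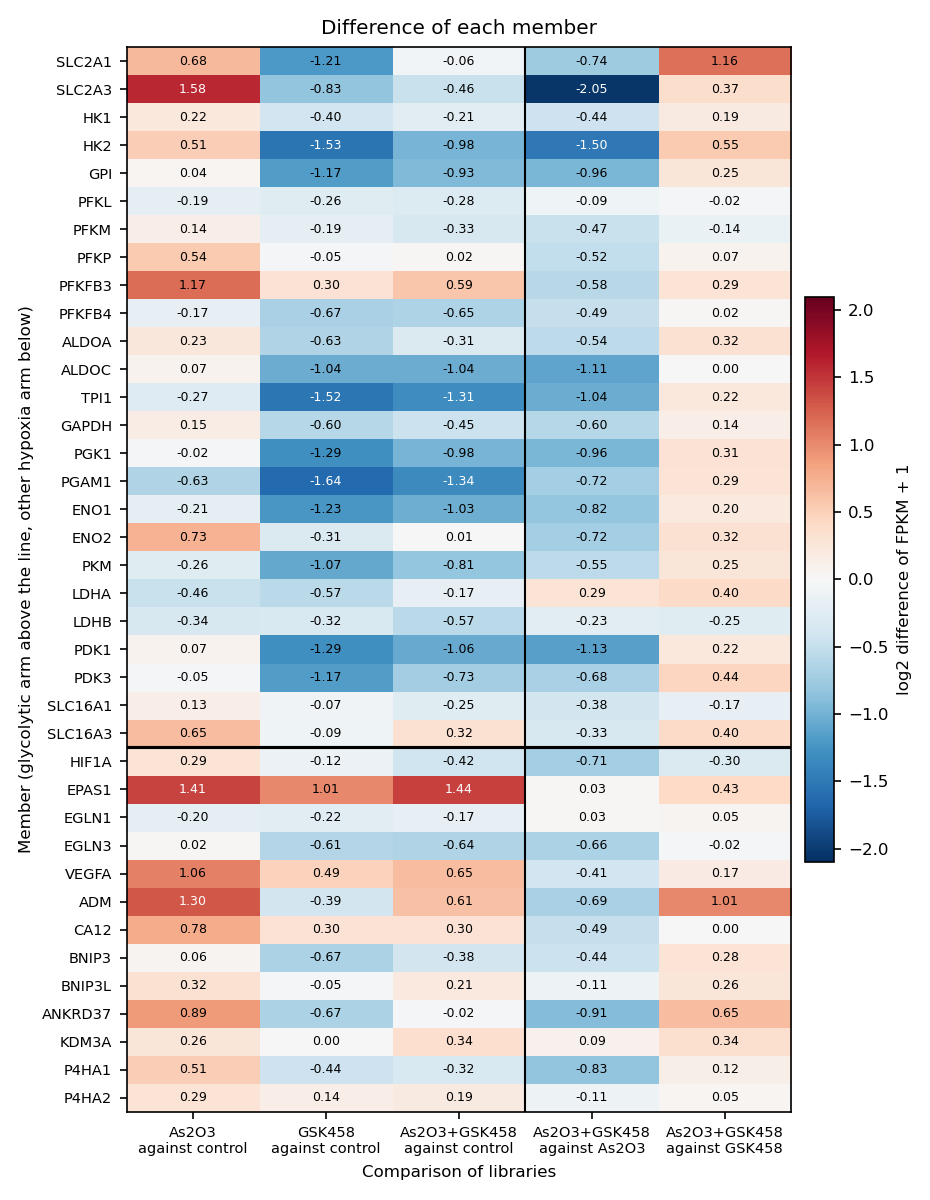
Difference of each of the 38 members on the log2(FPKM + 1) scale in 5 comparisons, printed in each cell and coloured red for higher and blue for lower in the first-named library. Rows follow the order of the pathway, with the glycolytic arm above the horizontal line. The GSK458 column is blue for 24 of 25 glycolytic genes, beside 50.5% of all genes that were lower. These cells run from −1.64 (PGAM1) to −0.05 (PFKP), with PFKFB3 the exception at 0.30.

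The order of the libraries summarises the split between the arms. Both libraries with GSK458 were below both libraries without it for 19 of 25 glycolytic genes and 5 of 13 other hypoxia genes (HIF1A, EGLN3, BNIP3, ANKRD37 and P4HA1), beside 30.6% of all genes. Both libraries with As2O3 were above both libraries without it for 4 of 25 glycolytic genes (PFKP, PFKFB3, ENO2 and SLC16A3) and 7 of 13 other hypoxia genes (EPAS1, VEGFA, ADM, CA12, BNIP3L, KDM3A and P4HA2), beside 13.3% of all genes. The 5 other hypoxia genes low with GSK458 and the 4 glycolytic genes high with As2O3 are near these shares of all genes. The single member below both others in both libraries with As2O3 was LDHB, beside 13.1% of all genes, and no member was above both others in both libraries with GSK458, beside 27.4%.

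Each drug can be read in a pair of libraries without the other drug and in a pair with it, and these pairs share no library. For GSK458, 30 of 38 members were lower in both pairs, 2 were higher in both (EPAS1, by 1.01 and 0.03, and KDM3A, by 0.00 and 0.09, each with 1 value near 0) and 6 went opposite ways. Over all genes, 37.04% were lower in both, 34.2% higher in both and 28.5% opposite. ALDOC, HK2, PDK1 and TPI1 were at least 2-fold lower in both, 10.5% of the members beside 2.50% of all genes. In the pair with As2O3, 34 of 38 members were lower, beside 52.2% of all genes. Of these, 5 members were 2-fold lower (SLC2A3, HK2, PDK1, ALDOC and TPI1) beside 4.27% of all genes, none was 2-fold higher beside 2.28%, and the medians were −0.60 in the glycolytic arm, −0.44 in the other arm and −0.02 over all genes. The arm medians differed by −0.16 in that pair and by −0.55 in GSK458 against the control. Among genes that averaged at least 5 FPKM they differed by −0.48 and −0.60, with the median of the other arm at −0.11 in the pair with As2O3. Across the 38 members the differences in the 2 pairs had a Pearson r of 0.61 and a Spearman rho of 0.71, beside 0.62 and 0.61 across all genes. These describe genes measured in the same 4 libraries.

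For As2O3, 23 members were higher in both pairs, 2 were lower in both (PFKL and LDHB) and 13 went opposite ways. Over all genes, 30.1% were higher in both, 28.3% lower in both and 41.3% opposite. The medians in the combination against GSK458 were 0.25 in the glycolytic arm and 0.17 in the other arm, beside 0.00 over all genes, and 32 of 38 members were higher than with GSK458 alone, beside 50.5% of all genes. ADM was the only member at least 2-fold higher in both, beside 31 of all 12260 genes. It is a low gene, and with 5 FPKM added its differences were 0.79 and 0.52. Pearson's r between the pairs was 0.41 and Spearman's rho 0.33 across the 38 members, beside 0.23 and 0.26 across all genes.

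**Figure D4:**
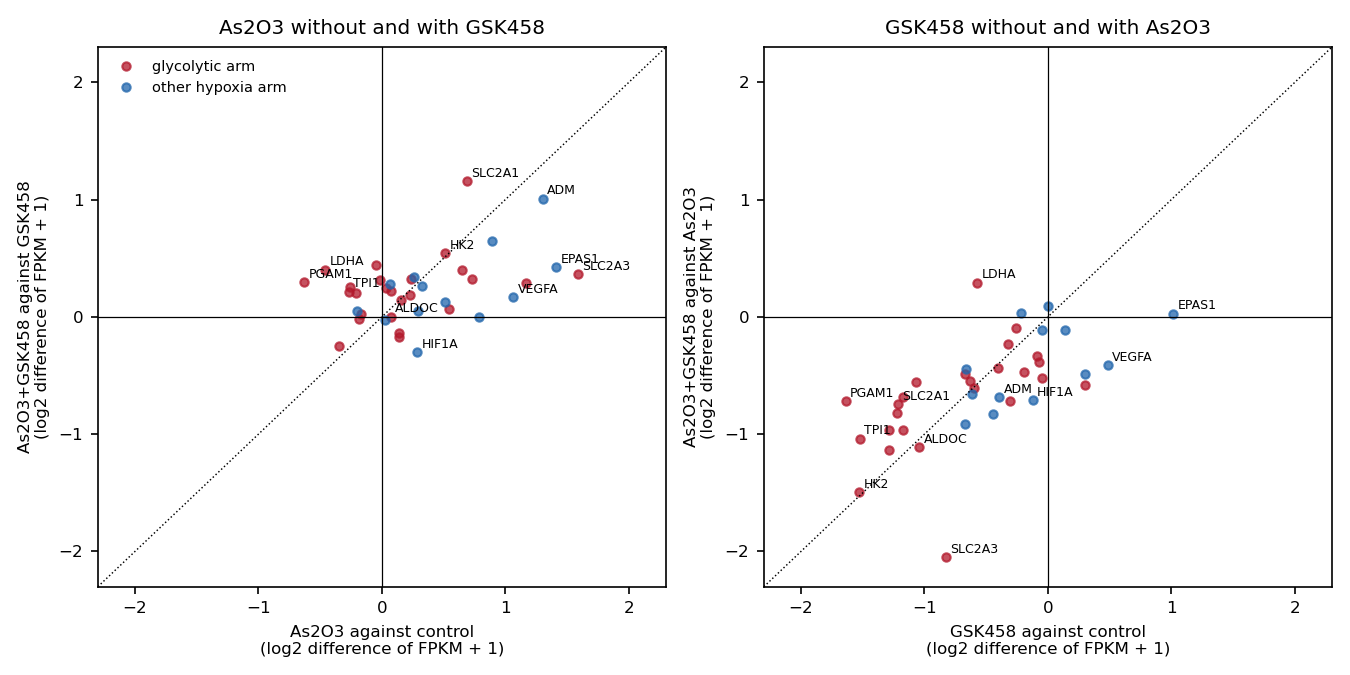
Each point is a member, red for the glycolytic and blue for the other hypoxia arm, with its difference on the log2(FPKM + 1) scale without the other drug on the x axis and with it on the y axis, and a dotted line where both are equal. Left, As2O3, and right, GSK458. On the right SLC2A3 lies at −0.83 and −2.05 and LDHA, above the zero line, at −0.57 and 0.29.

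Isoenzyme balance can be read as a share of the summed FPKM of the members of a family, which the scaling of a library does not alter. Relatives outside the members, such as HKDC1, are not in these sums. Of the hexokinase pair, HK2 made up 8.603% with As2O3, 2.39% with GSK458, 3.59% with both drugs and 6.87% in the control. Of the glucose transporter pair, SLC2A3 made up 51.05% with As2O3, 40.6% with GSK458, 27.6% with both drugs and 34.6% in the control. The HK2 share was thus lowest with GSK458, and the SLC2A3 share highest with As2O3 and lowest with both drugs. Of the alpha subunits, EPAS1 made up 28.6% with As2O3, 28.7% with GSK458, 40.1% with both drugs and 15.4% in the control, the control being the lowest. Of the enolases, ENO2 made up 5.32% with As2O3, 5.18% with GSK458, 5.63% with both drugs and 2.83% in the control, again with the control lowest. Of the lactate dehydrogenase subunits, LDHA made up 34.9% with As2O3, 32.9% with GSK458, 43.5% with both drugs and 36.8% in the control. Of the phosphofructokinase subunits, PFKP made up 73.5% with As2O3, 67.8% with GSK458, 69.9% with both drugs and 64.9% in the control.

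**Figure D5:**
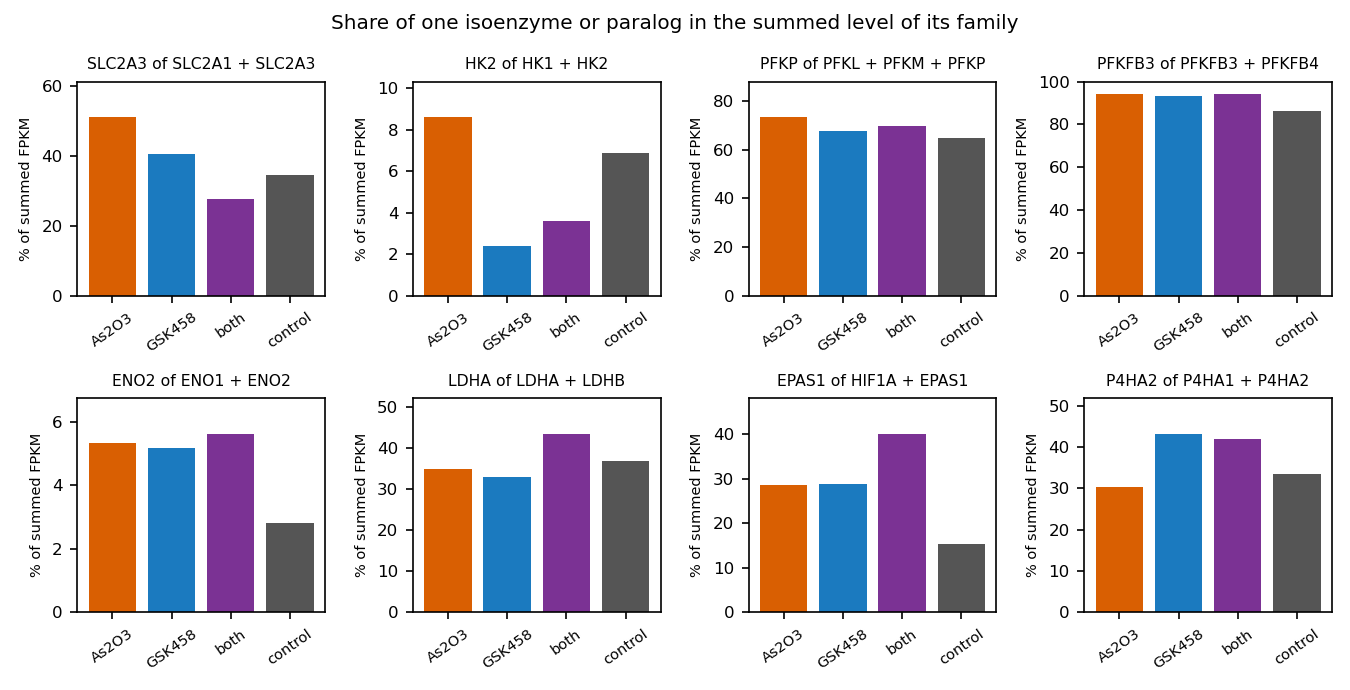
Share of 1 isoenzyme or paralog in the summed FPKM of the members of its family (bars from 0, in %) in the As2O3, GSK458, combination ("both") and control libraries. The EPAS1 and ENO2 bars are lowest in the control, and the HK2 bar is lowest with GSK458.

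Genes next to the members in the same pathways were taken from lists of known function. Of 27 other glycolytic and pyruvate genes that averaged at least 1 FPKM, 23 were lower with GSK458, beside 50.5% of all genes. None of them was 2-fold lower, beside 3.87% of all genes, and the median of the list was −0.31. The list included the mitochondrial pyruvate carrier subunit MPC2 at 35.6 FPKM with As2O3, 29.2 with GSK458, 27.8 with both drugs and 56.7 in the control. The combination was 2-fold lower than the control for this gene alone in the list (−1.003), beside 4.31% of all genes. Of 19 genes of glycogen and glucose synthesis, 14 were lower with GSK458 (median −0.23), beside 50.5% of all genes. PC, the pyruvate carboxylase that feeds glucose synthesis, was the 1 gene 2-fold lower, beside 3.87% of all genes. Its level was 3.91 FPKM with As2O3, 0.852 with GSK458, 1.28 with both drugs and 3.17 in the control. With As2O3 no gene of either list was 2-fold apart from the control, beside 2.07% of all genes higher and 1.41% lower.

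The list of 41 further HIF pathway and hypoxia genes had medians closer to those of the other hypoxia arm than to those of the glycolytic arm. They were 0.25 with As2O3, −0.16 with GSK458 and 0.03 with the combination, each against the control. With As2O3, 7 of the 41 genes were 2-fold higher, beside 2.07% of all genes, and none was 2-fold lower, beside 1.41%. The higher ones were led by the transcription factor MAFF (2.34), the secreted STC2 (2.002), the kinase PIM1 (1.94) and NDRG1 (1.90). With GSK458, 4 were 2-fold higher (MAFF, GPRC5A, PIM1 and STC2), beside 2.35% of all genes, and 4 lower, beside 3.87%. The lower ones were DDIT4, an inhibitor of mTOR complex 1 induced by hypoxia, at 1152 FPKM with As2O3, 289 with GSK458, 306 with both drugs and 1105 in the control, the collagen lysyl hydroxylase PLOD1 (−1.08), FAM162A (−1.07) and the repressor BHLHE40 (−1.05). With both drugs, 7 were 2-fold higher and 3 lower than in the control, beside 3.25% and 4.31% of all genes. MXI1, a partner of MAX that HIF induces, stood at 43.5 FPKM with As2O3, 31.03 with GSK458, 36.5 with both drugs and 16.5 in the control.

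Of 10 regulators that act on glucose use, TXNIP and MYC were 2-fold higher with As2O3 (1.08 and 1.07), beside 2.07% of all genes. Against the control, none was 2-fold higher or lower with GSK458 (2.35% and 3.87% of all genes) or with both drugs (3.25% and 4.31%). TXNIP, which restrains glucose uptake, stood at 388 FPKM with As2O3, 347 with GSK458, 237 with both drugs and 184 in the control. ARRDC4, its relative, stood at 16.99 FPKM with As2O3, 12.1 with GSK458, 8.93 with both drugs and 9.45 in the control. Both were higher with each drug alone than with both drugs. VHL, the ligase subunit that removes hydroxylated alpha subunits, stood at 35.6 FPKM with As2O3, 38.2 with GSK458, 41.8 with both drugs and 28.8 in the control, higher in the 3 treated libraries than in the control.

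Additivity was read on the log2 scale, as the difference of the combination from the control less the sum of the differences of the single drugs. The departure had a median of 0.09 in the glycolytic arm and −0.25 in the other arm, beside 0.00 over all genes. SLC2A3 was the member past 2-fold, at −1.22, which is 1 of 38 beside 2.05% of all genes at least 2-fold below additivity, so the count is near the share of all genes. No member was 2-fold above additivity, beside 1.33%. The next lowest were EPAS1 (−0.99), VEGFA (−0.90) and PFKFB3 (−0.88), and the highest were PGAM1 (0.92) and LDHA (0.86). The first-named genes were lowest in the control and PGAM1 and LDHA highest there. That 1 library enters every departure, and its part was not tested.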

How the data were processed

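RNA from 4 cultures of TOV21G cells was sequenced, 1 library per group, with groups, doses and times from the sample labels. Per the labels' protocols, libraries were made with a stranded mRNA kit. The deposited table holds FPKM values, which the authors computed from their reads for 26255 gene symbols. The submitters' processing notes name build hg19 and, without roles, Cuffdiff 2.2.1, SAMtools 0.1.18, Bowtie2 2.2.8 and TopHat2 2.1.1. The annotation, the strand setting and the handling of multiply mapped reads were not stated there.

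FPKM were used as deposited. The 12260 genes that averaged 1 FPKM or more across libraries were kept, and a pseudocount of 1 FPKM was added before log2 (Python 3.11.15, pandas 2.3.3). Since each group is 1 library, tests were left out (an additive fit of the 2 drugs would leave 1 residual degree of freedom). Most counts of members are set beside those over all genes. The difference step was run on simulated data with large known changes in genes of at least 5 FPKM in the control. That run checks the code alone. It does not measure the spread between libraries or the error of low genes. FPKM keep no counts, so no counting interval was computed. An exact 0 can be a failed estimate.

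The members and gene lists were chosen with earlier results of these data known. Every member is described. Of the other lists, counts are given and up to 4 genes at least 2-fold apart each way per comparison. PDK2, PDK4, HKDC1, MXI1, VHL and ARRDC4 are given besides and were picked after their values were seen. Alternatives were 3 scalings, a stricter filter (5 FPKM on average) or none, pseudocounts of 5 or 0.1 FPKM, a threshold of 1.5-fold, the mean of an arm, PDK1 and PDK3 moved to the other arm, and members with pseudogenes left out. Promoters come from RefSeq (GRCh38.p14). A further marker of the clear cell carcinoma list is not reported here.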

Additional observations from a re-analysis of the deposited data

Results flagged for a closer look

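Several members moved one way with a drug alone and the opposite way in the presence of the other drug, by at least 0.2 on the log2 scale in each pair of libraries. The difference between the pairs was not tested, since each pair is 1 library against 1. For As2O3, the values without and with GSK458 were −0.27 and 0.22 for TPI1, −0.63 and 0.29 for PGAM1, −0.21 and 0.20 for ENO1, −0.26 and 0.25 for PKM, −0.46 and 0.40 for LDHA, and 0.29 and −0.30 for HIF1A. All but HIF1A are abundant enzymes of the steps from the trioses to lactate. Each of these enzymes has pseudogenes named after it, and reads of HIF1A may not be told apart from those of HIF1A-AS2. The assignment of reads is thus uncertain for every gene in this As2O3 list. For GSK458, the values without and with As2O3 were 0.30 and −0.58 for PFKFB3, −0.57 and 0.29 for LDHA, 0.49 and −0.41 for VEGFA, and 0.30 and −0.49 for CA12. LDHA is the member that reversed for both drugs. Its reversals are read from the same 4 libraries, so they are not separate observations. TPI1, PGAM1, ENO1, PKM and LDHA were highest in the control, which is 1 library. The part of that library in the reversals was not tested. The share of all genes that moved opposite ways by at least 0.2 in each pair was not computed.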

How the results depend on the processing

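No paired analysis was possible because the groups share only replicate number 1. Of 150 alternative values of arm medians and their differences, 143 stayed within 0.2 of the reported value, and 72 of 90 counts of 2-fold members stayed within 1.5 times. The tolerance of 0.2 exceeds some reported values, such as the glycolytic median of 0.07 with As2O3, so a change of sign could pass. Some alternatives could move little. Median-of-ratios scaling moved the median of all genes by −0.003 in GSK458 against the control. Counts of 0 that stayed 0 are included. Without members that have pseudogenes or a paralog, GSK458 against the control gave −0.36 for the glycolytic median, −0.27 for the difference between arms and 5 lower members, and the combination gave 2 lower members against the control and 2 against As2O3. With PDK1 and PDK3 in the other arm, the combination against the control gave −0.022 for that arm and −0.43 for the difference between arms. With a mean of at least 5 FPKM, the combination against As2O3 gave −0.11 for the other arm and −0.48 for the difference, and 1 higher member against GSK458. The mean in place of the median gave 0.54 for the other arm with As2O3. With a pseudocount of 5 FPKM, 3 members were higher with As2O3, 6 lower and 0 higher with GSK458, 3 lower with both drugs against the control, 2 lower against As2O3 and 0 higher against GSK458. Rescaling to equal sums left 0 members higher with GSK458, and upper-quartile scaling 1 higher in the combination against GSK458. At 1.5-fold, 10 members were higher and 1 lower with As2O3, 18 lower with GSK458, 12 lower and 4 higher with both drugs against the control, and 18 lower against As2O3. For the 1.5-fold threshold and the pseudocount of 5 FPKM, the shares of all genes were not computed. Rescaling to equal sums moved the median of all genes by up to −0.11, in GSK458 against the control; relative to that median, the glycolytic arm then stood at −0.72 and the other arm at −0.13. Of 207 alternative values of single 2-fold members, none changed sign and 21 fell under 2-fold. The cause of these shifts was not tested beyond what each alternative removes.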
